A study of Mus musculus with 10 samples.

Results

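Regulatory T (Treg) cells sorted from lymph nodes of Il2ramut/mut mice were compared with Treg cells of wild type (WT) mice across all 65956 transcript probe sets of an Affymetrix Mouse Transcriptome Array 1.0 Pico. These are every row of the 72688 in the deposited table whose identifier marks a transcript, without the 6732 control rows. Each genotype had 3 Treg arrays, so 6 of the 10 arrays of the series entered the comparison, and the paper draws each array as 1 mouse. The remaining 4 arrays, 2 of each genotype, held conventional T (Tconv) cells, which per the methods were sorted as naive cells, and they are used only where a Treg difference is set beside the Tconv difference.

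Il2ramut/mut mice are homozygous for a point mutation in Il2ra, which encodes CD25, the alpha chain of the receptor for IL-2, and per the methods respond less to IL-2 that is bound by the high affinity receptor. The mutation arose in a colony of Ccr2 knockout mice, from which per the paper a line with intact Ccr2 was bred. Il2ramut/mut and WT mice alike were on the C57BL/6 background, female, 6 to 8 weeks old, and expressed red fluorescent protein (RFP) from the Foxp3 locus as a reporter. RNA came from 50000 sorted CD4+ RFP+ cells per array. In these samples a lower share of one kind of Treg cell and less RNA per cell cannot be told apart. A point mutation need not alter the Il2ra signal, which therefore does not check the labels.

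Treg cells hold back other lymphocytes and are defined by the transcription factor Foxp3. They do not make IL-2 but take it up through CD25, CD122 (Il2rb) and the common gamma chain (Il2rg), and the signal passes through JAK kinases to STAT5. In lymph nodes, resting or central Treg cells recirculate with genes shared with naive T cells, whereas effector Treg cells carry inhibitory receptors, tissue homing receptors, the repressor Blimp-1 (Prdm1) and mediators such as granzyme B, and a part of them divides.

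Array medians lay between 4.97 and 5.03 log2 units, and 40.3% to 51.0% of transcript probe sets were above the background of an array, set at the 95th percentile of 23 control probe sets that match no mouse transcript. Across probe sets, arrays of the same genotype correlated at 0.9952 to 0.9959 and arrays of different genotypes at 0.9939 to 0.9947. The 17 measured genes of a Treg identity list were above background on all 6 arrays, which bears on the sort but not on the genotype. Foxp3 and Il2rg are not reported, because no probe set names 1 of them alone.

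Il2ramut/mut Treg cells differed from WT Treg cells in few probe sets, with large differences in genes of effector Treg cells. Limma, a linear model with moderated variances, called 132 of 65956 probe sets (0.200%) at a Benjamini-Hochberg adjusted p under 0.05, of which 55 (0.0834%) were higher and 77 (0.117%) were lower in Il2ramut/mut Treg cells. Called differences ranged from 0.66 to 3.14 log2 units in size, and the median of all probe sets was -0.002. The study's own criterion, a fold of at least 1.5 with an unadjusted p of at most 0.01, took in 386 probe sets (0.585%), 163 higher and 223 lower. An unadjusted p under 0.05 was reached by 7245 (11.0%), whereas adjusting the methods' t-test in the same way left 0.

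Only part of these calls belong to genes with a usable name. Of the 132, 76 named exactly 1 gene, 21 named several and 35 named none. The probe sets with 1 gene were 43 higher and 33 lower, and leaving out predicted models gave 38 higher and 15 lower, so that the lower calls were for the greater part unnamed or model transcripts. The balance turned with quantile normalization of the arrays, which left 42 higher and 16 lower, and when only probe sets naming 1 gene were tested, with 102 higher and 76 lower. The count rested on every array. Leaving out 1 of the 6 arrays left between 2 and 8 calls. Of the 53 called genes named here, between 1 and 4 then kept an adjusted p under 0.05. None of the 53 could change direction in these fits, because the groups of all 132 called probe sets did not overlap. Only Gzmb was called under each of the limma settings in which it was tested.

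**Figure D1:**
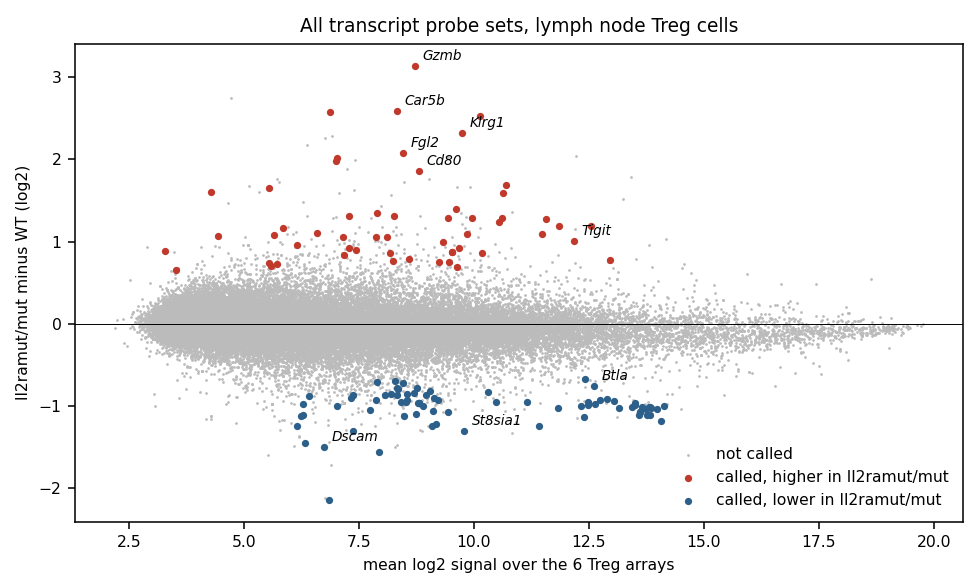
Difference between Il2ramut/mut and WT Treg arrays (log2, y axis) against the mean log2 signal over the 6 Treg arrays (x axis) for 65956 transcript probe sets. Grey points were not called, the 55 red points were called higher and the 77 blue points called lower in Il2ramut/mut Treg cells, and Gzmb stood highest with a difference of 3.14.

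Genes of killing and suppression were led by Gzmb, which encodes granzyme B, a serine protease of cytotoxic granules that Treg cells can also use. Its log2 signal was 10.33, 10.26 and 10.27 on the Il2ramut/mut arrays, against 6.99, 7.27 and 7.17 on the WT arrays. The groups lay far apart and each was tight. The difference was 3.14 ± 0.094 (SE), or 8.82-fold, with an adjusted p = 0.000221. Of 18 measured genes of the cytotoxic granule list, 2 were called, both higher, while 0.241% of the 30738 genes that a probe set names alone were called. Differences were positive in 12 of the 18 with a median of 0.09, and in 5 the groups did not overlap in the higher direction and in 0 in the lower. All named genes had shares of 8.54% and 8.96%. The lowest member, Prf1, which encodes the pore-forming perforin, stood at -0.53 (adjusted p = 0.431). The second called gene was Tnfsf10, the death ligand TRAIL, with signals of 10.54, 10.57 and 10.70 on the Il2ramut/mut arrays, against 9.65, 9.81 and 9.78 on the WT arrays (0.86 ± 0.087, adjusted p = 0.0323).

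Fgl2 encodes a secreted fibrinogen-like protein known as a mediator of Treg suppression. Its signals were 9.27, 9.77 and 9.45 on the Il2ramut/mut arrays, against 7.51, 7.35 and 7.40 on the WT arrays. All 3 Il2ramut/mut arrays lay above all WT arrays, and the difference was 2.08 ± 0.13, or 4.23-fold (adjusted p = 0.00754). Il10ra, a chain of the receptor for the anti-inflammatory cytokine IL-10, was called too, at 9.60, 9.97 and 9.90 on the Il2ramut/mut arrays, against 8.74, 8.97 and 8.78 on the WT arrays (0.99 ± 0.12, adjusted p = 0.0457). Il10 itself stood at 8.58, 7.71 and 8.34 against 6.43, 6.36 and 6.94, with no overlap between the groups, but its difference of 1.63 ± 0.25 was not called (adjusted p = 0.0727). Il10 and the other uncalled list members named below were chosen after their values were seen, apart from a fixed set of reference genes.

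Inhibitory and costimulatory receptors changed in both directions. Klrg1 is a lectin-like inhibitory receptor of antigen-experienced lymphocytes. It had signals of 10.54, 10.95 and 11.20 on the Il2ramut/mut arrays, against 8.54, 8.88 and 8.30 on the WT arrays, a difference of 2.32 ± 0.20 or 5-fold (adjusted p = 0.0228). No other killer lectin receptor was called among 16 measured, 6 of which were above background on all arrays of a group. Of all named genes, 0.241% were called. Cd80, a ligand of CD28 and CTLA-4, is better known from antigen-presenting cells. Its signals were 9.64, 9.57 and 9.99 on the Il2ramut/mut arrays, against 7.89, 7.83 and 7.91 on the WT arrays, and the difference was 1.86 ± 0.12 (adjusted p = 0.00754).

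Tigit and Cd200r1 encode inhibitory receptors for CD155 and for CD200. Tigit stood at 12.59, 12.73 and 12.73 on the Il2ramut/mut arrays, against 11.75, 11.70 and 11.57 on the WT arrays (1.01 ± 0.087, adjusted p = 0.0218). For Cd200r1 the signals were 11.01, 11.12 and 11.35 on the Il2ramut/mut arrays, against 9.98, 10.09 and 9.70 on the WT arrays (1.24 ± 0.13, adjusted p = 0.0368). The opposite direction was seen for Btla, the inhibitory receptor that binds HVEM, with 12.39, 12.09 and 12.24 on the Il2ramut/mut arrays, against 12.97, 13.02 and 12.98 on the WT arrays. Its arrays did not overlap, and it fell by 0.75 ± 0.095 (adjusted p = 0.0473). Of 24 measured genes of the costimulatory and inhibitory receptor list, 3 were called higher and 1 lower, against 0.133% and 0.107% of all named genes. Differences were positive in 14 and negative in 10, with a median of 0.03. Groups did not overlap in the higher direction in 9 (37.5%, against 8.54% of all named genes) and in the lower in 5 (20.8%, against 8.96%). Ctla4, a defining inhibitory receptor of Treg cells, stood at 14.88, 14.63 and 14.77 against 14.35, 14.27 and 14.37, a difference of 0.43 ± 0.09 that was not called (adjusted p = 0.162).

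**Figure D2:**
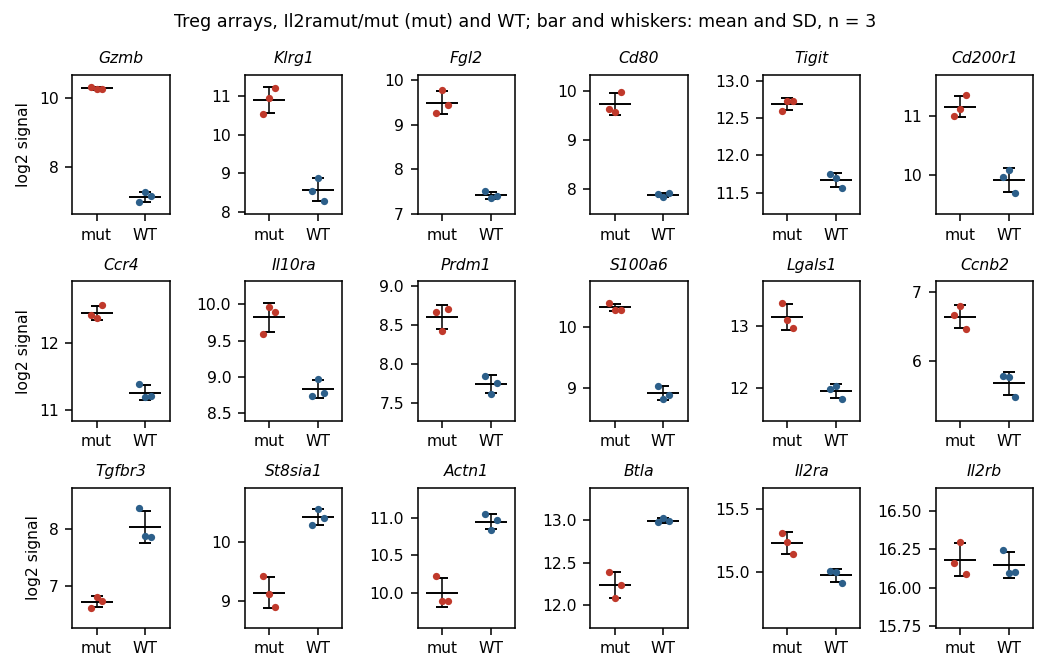
Log2 signal (y axes, each with its own range) of 18 genes on the 3 Il2ramut/mut (mut, red) and 3 WT (blue) Treg arrays, with the mean and SD. The 12 genes of the upper 2 rows and the first 4 of the third row were called and their groups did not overlap, while Il2ra (0.25) and Il2rb (0.04) were not called.

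As a list, effector Treg genes had 7 called members of 26 measured, all higher, against 0.241% of all named genes. They were Gzmb, Klrg1, Fgl2, Ccr4, Anxa2, Tigit and Prdm1. The differences of 23 members were positive and the median was 0.80, against -0.003 over all named genes. In 19 members all Il2ramut/mut arrays exceeded all WT arrays, and in 0 the reverse, while 8.54% of all named genes (8.24% of all probe sets) did not overlap in the higher and 8.96% (8.51%) in the lower direction. Relative to the WT mean of each gene, the median member lay at 0.77, 0.65 and 0.88 on the Il2ramut/mut arrays, against 0.03, 0.04 and -0.04 on the WT arrays. Pdcd1 and Cd44 went the other way with -0.20 each, neither called. Some members are named in the study's text as found on these samples, so the count is not independent evidence of its direction.

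Of the receptors for homing, Ccr4 alone was called. Ccr4, the receptor for CCL17 and CCL22, had signals of 12.42, 12.37 and 12.57 on the Il2ramut/mut arrays, against 11.39, 11.19 and 11.20 on the WT arrays (1.20 ± 0.095, adjusted p = 0.0159). The chemokine and egress receptor list had 22 measured genes and a median of 0.26, with 14 differences positive and 8 negative. Of all named genes, 0.133% were called higher. Groups did not overlap in the higher direction in 7 (31.8%, against 8.54% of all named genes) and in the lower in 2 (9.09%, against 8.96%). Ccr2, the receptor for CCL2, stood at 10.59, 9.91 and 10.91 against 8.73, 8.91 and 8.79, a difference of 1.66 ± 0.23 that missed the threshold (adjusted p = 0.0607), as did Ccr8 with 0.86 ± 0.21 (adjusted p = 0.227). Cxcr5, which leads cells to follicles, had 8.62, 9.29 and 8.67 against 9.74, 9.59 and 9.97 (-0.91 ± 0.19, adjusted p = 0.17), and Ccr6 had -0.74 ± 0.13 (adjusted p = 0.1). Groups did not overlap for these 4 genes. In Ccr7, the lymph node homing receptor, 1 Il2ramut/mut array exceeded 1 WT array (-0.50 ± 0.16, adjusted p = 0.35).

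Ccr2 and Il2ra were each looked at with their neighbours on the chromosome, since the line was derived from a Ccr2 knockout colony. Of the 19 nearest genes of Ccr2 in the RefSeq table, 10 were measured and 0 called, with a median difference of 0.22. Ccr3, a receptor for eotaxins, was above background on all 3 Il2ramut/mut arrays and on 0 WT arrays, so that its difference has only a bound. Against the background of the WT arrays it was at least 1.98-fold higher, and it was not called (adjusted p = 0.129). Of the 20 nearest genes of Il2ra, 12 were measured and 0 called, from -0.67 to 0.16 with a median of -0.03.

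Calcium-binding and lectin genes of activated T cells rose in part. S100a6 encodes a small calcium-binding protein. It stood at 10.38, 10.28 and 10.27 on the Il2ramut/mut arrays, against 9.04, 8.81 and 8.89 on the WT arrays (1.397 ± 0.089, adjusted p = 0.00754). Lgals1, which encodes the secreted lectin galectin-1, had 13.36, 13.10 and 12.96 on the Il2ramut/mut arrays, against 11.99, 12.04 and 11.82 on the WT arrays (1.19 ± 0.12, adjusted p = 0.0327). For the phospholipid-binding Anxa2 the signals were 7.88, 7.76 and 7.42 against 6.59, 6.68 and 6.61 in the same order (1.06 ± 0.12, adjusted p = 0.0416). Of 19 measured S100, annexin and galectin genes, 3 were called higher and 0 lower, against 0.133% and 0.107% of all named genes. Differences were positive in 15, and the median was 0.33. Groups did not overlap in the higher direction in 11 (57.9%, against 8.54% of all named genes) and in the lower in 0 (against 8.96%). S100a4, a relative of S100a6, had a difference of 0.78 ± 0.15 and missed the threshold (adjusted p = 0.132).

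Among adhesion and cytoskeletal genes, Lamc1, the gamma 1 chain of laminin, stood at 8.66, 8.53 and 8.53 on the Il2ramut/mut arrays, against 7.09, 7.21 and 7.35 on the WT arrays (1.35 ± 0.095, adjusted p = 0.0106), and Myo1f, a class I myosin of leukocytes, at 10.53, 10.54 and 10.76 on the Il2ramut/mut arrays, against 9.44, 9.22 and 9.31 on the WT arrays (1.28 ± 0.10, adjusted p = 0.0159). Actn1, alpha-actinin 1, which cross-links actin filaments, had 10.22, 9.89 and 9.90 on the Il2ramut/mut arrays, against 11.04, 10.84 and 10.96 on the WT arrays, and fell by 0.95 ± 0.12 (adjusted p = 0.0456). Cnn3, a calponin, fell by 1.25 ± 0.12 (adjusted p = 0.0323). Myo1f, Actn1 and Cnn3 were the 3 called of 28 measured genes of the actin and motility list, against 0.241% of all named genes. In this list 15 differences were positive and 13 negative, and the median was 0.02. In 6 genes (21.4%, against 8.54% of all named genes) the groups did not overlap in the higher direction. In the lower direction it was 3 (10.7%, against 8.96%). Dscam, an immunoglobulin superfamily adhesion molecule best known from neurons, was the lowest called gene with a proper name at 5.86, 6.18 and 5.94 on the Il2ramut/mut arrays, against 7.85, 7.18 and 7.44 on the WT arrays, where it fell by 1.49 ± 0.18 (adjusted p = 0.0416). The integrin and adhesion list as a whole held 28 measured genes, 1 called higher and 1 lower, against 0.133% and 0.107% of all named genes. Of the 28, 13 (46.4%, against 8.54% of all named genes) did not overlap in the higher direction and 4 (14.3%, against 8.96%) in the lower. Itgb1, Itgae and Itga2, chains of integrins, were among the 13 with differences of 0.69, 0.79 and 1.29, none of them called.

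Called genes of signaling came from several lists. Gna15, a G protein alpha subunit of the Gq class, had 7.04, 7.07 and 7.35 on the Il2ramut/mut arrays, against 5.99, 6.16 and 5.99 on the WT arrays (1.11 ± 0.11, adjusted p = 0.0311). Pde2a, a phosphodiesterase that degrades cAMP and cGMP, had 12.17, 12.21 and 12.25 on the Il2ramut/mut arrays, against 11.02, 10.67 and 11.13 on the WT arrays (1.27 ± 0.13, adjusted p = 0.0323). They were the 1 called gene each of 25 measured regulators of G protein signaling (median -0.003) and of 17 adenosine and cAMP genes (median 0.05). Of all named genes, 0.133% were called higher. In the G protein list 4 (16%) did not overlap in the higher and 4 (16%) in the lower direction. For the adenosine and cAMP list it was 4 (23.5%) and 1 (5.88%). All named genes had shares of 8.54% and 8.96%. The kinases Tec and Fes, which stand in no list, rose by 1.06 ± 0.12 (adjusted p = 0.0368) and 0.73 ± 0.073 (adjusted p = 0.0323). Dusp5, a nuclear phosphatase of the MAP kinase ERK and a known target of IL-2 signals, rose by 0.75 ± 0.083, with 9.77, 9.83 and 9.93 against 9.03, 9.08 and 9.16 (adjusted p = 0.0375).

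Apart from Dusp5, no gene was called in the list of receptors, JAKs and STATs or in that of STAT5 feedback genes and targets. Il2ra stood at 15.31, 15.24 and 15.14 on the Il2ramut/mut arrays, against 14.92 to 15.01 on the WT arrays. Every Il2ramut/mut array lay above every WT array, yet the difference was 0.25 ± 0.081 and not called (adjusted p = 0.336). Il2rb overlapped between the groups (0.04 ± 0.091, adjusted p = 0.926). None of 15 measured receptor, JAK and STAT genes was called and their median was 0.00, with Stat5a at -0.02. Of 24 measured feedback genes and targets of STAT5, 1 was called, Dusp5, against 0.241% of all named genes. The median was -0.04, with 9 differences positive and 15 negative, from -0.87 to 0.93. Groups did not overlap in the higher direction in 4 (16.7%, against 8.54% of all named genes) and in the lower in 6 (25%, against 8.96%). Within this list the suppressors of cytokine signaling Socs2 (0.93 ± 0.17, adjusted p = 0.117) and Cish (0.34 ± 0.077, adjusted p = 0.202) and the kinase Pim1 (0.70 ± 0.14, adjusted p = 0.136) were positive without overlap. Bcl2, the survival factor, was negative without overlap, with 12.72, 12.50 and 12.47 against 12.95, 13.22 and 13.04 (-0.51 ± 0.11, adjusted p = 0.168). Members of the list thus lay on both sides of 0 with no common direction.

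Of transcription factors, Prdm1, which encodes the repressor Blimp-1, stood at 8.67, 8.42 and 8.71 on the Il2ramut/mut arrays, against 7.84, 7.61 and 7.75 on the WT arrays (0.87 ± 0.11, adjusted p = 0.0473) and was the only called gene of 21 measured effector and helper factors. Of all named genes, 0.133% were called higher. Maf (0.72 ± 0.12, adjusted p = 0.0837) and Ahr (1.05 ± 0.16, adjusted p = 0.0733) were positive with no overlap and missed the threshold. Of the 21 factors, 12 differences were positive and 9 negative, from -0.46 to 1.05 with a median of 0.14. Groups did not overlap in the higher direction in 7 (33.3%, against 8.54% of all named genes) and in the lower in 1 (4.76%, against 8.96%). Plagl1, a zinc finger factor counted among Treg identity genes, had 7.84, 7.46 and 7.64 on the Il2ramut/mut arrays, against 8.53, 8.49 and 8.50 on the WT arrays and fell by 0.86 ± 0.11 (adjusted p = 0.0473). It was the 1 called gene of the 17 measured Treg identity genes, against 0.107% of all named genes called lower. Of these 17, 12 had a positive difference, and the median was 0.23. In 9 (52.9%, against 8.21% of named genes above background) the groups did not overlap in the higher direction. In the lower direction it was 4 (23.5%, against 13.2%). Ikzf2, which encodes Helios, differed by 0.41 ± 0.10 (adjusted p = 0.224). Satb1, a genome organizer that is high in naive T cells, stood at 11.38, 10.79 and 11.15 against 12.06, 11.77 and 11.67, a difference of -0.72 ± 0.17 without overlap that was not called (adjusted p = 0.212). Scmh1, a Polycomb group protein, fell by 0.99 ± 0.084 (adjusted p = 0.0199). It was the only called gene of 39 measured chromatin genes, against 0.107% of all named genes called lower. Of the 39, 14 differences were positive and 25 negative. Groups did not overlap in 4 (10.3%) in the higher and 7 (17.9%) in the lower direction, against 8.21% and 13.2% of named genes above background. Setbp1, which encodes a DNA-binding partner of the protein SET, had 7.86, 7.87 and 8.05 against 8.96, 8.95 and 9.22 and fell by 1.12 ± 0.10 (adjusted p = 0.0279).

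Genes of resting and naive T cells had negative differences almost throughout. Tgfbr3 encodes betaglycan, a coreceptor for TGF-beta. Its signals were 6.62, 6.82 and 6.73 on the Il2ramut/mut arrays, against 8.35, 7.88 and 7.85 on the WT arrays, and it fell by 1.30 ± 0.15 (adjusted p = 0.0375). St8sia1, the sialyltransferase that makes ganglioside GD3, had 9.42, 9.11 and 8.89 on the Il2ramut/mut arrays, against 10.30, 10.58 and 10.43 on the WT arrays and fell by 1.30 ± 0.15 (adjusted p = 0.038). With Actn1, these were the 3 called genes of 25 measured, all lower, against 0.107% of named genes called lower. Differences were negative in 24 of the 25, the median was -0.43, and 16 genes did not overlap in the lower direction while 0 did in the higher. The median member lay at -0.30, -0.42 and -0.51 on the Il2ramut/mut arrays, against 0.06, -0.04 and -0.07 on the WT arrays, relative to the WT mean. Uncalled members included Lef1, a transcription factor of naive T cells (-0.43 ± 0.10, adjusted p = 0.212), Igfbp4 (-1.11 ± 0.16, adjusted p = 0.0607), Il6ra, a chain of the IL-6 receptor (-0.69 ± 0.12, adjusted p = 0.114), and Il7r, the one positive gene (0.47 ± 0.24, adjusted p = 0.537). Among named genes above background, 13.2% did not overlap in the lower and 8.21% in the higher direction.

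Genes of mitosis and DNA replication had mostly positive differences, of which few passed the test. Ccnb2 encodes cyclin B2, which drives entry into mitosis. It stood at 6.66, 6.80 and 6.47 on the Il2ramut/mut arrays, against 5.79, 5.77 and 5.50 on the WT arrays (0.96 ± 0.12, adjusted p = 0.0473) and was the only called gene of 48 measured in the mitosis and cytokinesis list. Of all named genes, 0.133% were called higher. In the mitosis list 42 differences were positive, and the median was 0.32. Groups did not overlap in the higher direction in 28 (58.3%, against 8.54% of all named genes) and in the lower in 1 (2.08%, against 8.96%). Mki67, the proliferation marker Ki-67, had 11.13, 10.38 and 10.71 against 9.46, 9.11 and 8.67, a difference of 1.66 ± 0.24 that missed the threshold (adjusted p = 0.0672). Top2a (1.18 ± 0.19, adjusted p = 0.084) and Ccna2 (1.04 ± 0.21, adjusted p = 0.159), which encode topoisomerase 2 alpha and cyclin A2, stood likewise.

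In the DNA replication list all 37 measured genes had a positive difference, and 0 were called, against 0.241% of all named genes. Groups did not overlap in the higher direction in 24 (64.9%, against 8.54% of all named genes) and in the lower in 0 (against 8.96%). An unadjusted p under 0.05 was reached by 23, while 4.96% of all probe sets were higher at that p. The list of cyclins, kinases and inhibitors was divided, with 10 of 18 differences positive and 0 called (3 higher and 0 lower at an unadjusted p under 0.05). Without overlap were 4 (22.2%, against 8.54% of all named genes) in the higher and 2 (11.1%, against 8.96%) in the lower direction. The median of this list was 0.07 and ran from -0.048 to 0.11 under the alternatives. The replication median was 0.32 and the range 0.05 to 0.84, with the highest values in Ccne2, cyclin E2 (0.84 ± 0.12, adjusted p = 0.0654), and Rrm2, a subunit of ribonucleotide reductase (0.83 ± 0.19, adjusted p = 0.203). Relative to the WT mean, the median replication gene lay at 0.41, 0.38 and 0.22 on the Il2ramut/mut arrays, against 0.07, 0.02 and -0.05 on the WT arrays, and the median mitosis gene at 0.46, 0.25 and 0.27 on the Il2ramut/mut arrays, against 0.04, -0.01 and -0.04 on the WT arrays. Of genes outside these lists that serve division, Pclaf, a partner of the replication clamp PCNA, rose by 0.89 ± 0.09 (adjusted p = 0.0323), and Cep55, which acts in the last step of cytokinesis, rose by 0.74 ± 0.094 (adjusted p = 0.0473). H1f5, a linker histone gene, was called higher but lay at background on all 6 arrays, and no fold is given.

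**Figure D3:**
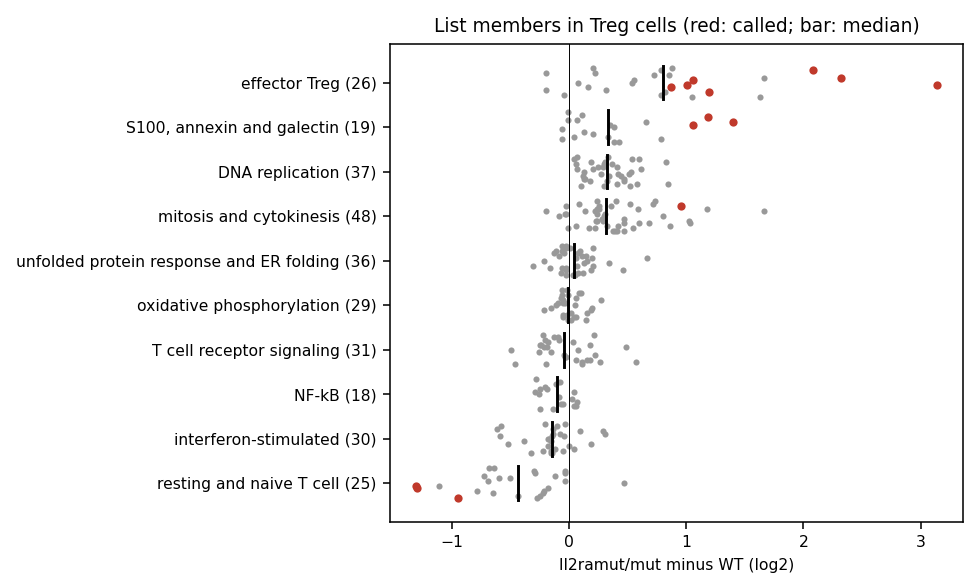
Differences between Il2ramut/mut and WT Treg arrays (log2, x axis) for the measured members of 10 gene lists (rows, number of genes in brackets), each point a gene, red where called, with the median as a black bar. The effector Treg median lay at 0.80 and the replication and mitosis medians at 0.32, while the median of resting and naive T cell genes was -0.43.

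Promoters of genes that moved together are shown to let the windows of division genes be compared with those of Gzmb, the gene with the highest difference, and Actn1, a gene that fell. Each window is from RefSeq on GRCm38.p6, runs 5′ to 3′ from 250 bases before to 50 after the gene start, and has in capitals every match, on either strand, to 1 of 9 motifs searched. As background, TTTGAA is the core of the cell cycle homology region, CCAAT is bound by NF-Y and TTTCCCGC by E2F proteins. The letters TTCNNNGAA are known from STAT proteins, TGTTTAC from forkhead proteins, GGGTGTGG from KLF proteins, TGANTCA from AP-1 and GGAAGT from ETS proteins, and the last motif was the interferon response element. Matches of different motifs may overlap. The windows lie at chr9:70421505-70421804, minus strand (Ccnb2), chr9:65890073-65890372, plus strand (Pclaf), chr19:38054734-38055033, plus strand (Cep55, the first of 2 windows), chr14:56262285-56262584, minus strand (Gzmb) and chr12:80260314-80260613, minus strand (Actn1).
Ccnb2: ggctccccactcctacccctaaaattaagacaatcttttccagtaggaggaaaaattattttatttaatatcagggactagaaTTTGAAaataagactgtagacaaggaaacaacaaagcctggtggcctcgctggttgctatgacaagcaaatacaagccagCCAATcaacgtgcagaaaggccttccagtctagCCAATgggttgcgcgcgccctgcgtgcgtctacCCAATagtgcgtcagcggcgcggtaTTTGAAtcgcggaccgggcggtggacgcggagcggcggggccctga
Pclaf: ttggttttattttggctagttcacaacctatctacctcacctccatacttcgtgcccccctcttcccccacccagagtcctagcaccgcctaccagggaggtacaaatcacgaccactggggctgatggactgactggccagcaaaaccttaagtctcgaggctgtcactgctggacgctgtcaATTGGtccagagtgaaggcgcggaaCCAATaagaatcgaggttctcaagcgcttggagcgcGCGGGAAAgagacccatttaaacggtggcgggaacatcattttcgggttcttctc
Cep55: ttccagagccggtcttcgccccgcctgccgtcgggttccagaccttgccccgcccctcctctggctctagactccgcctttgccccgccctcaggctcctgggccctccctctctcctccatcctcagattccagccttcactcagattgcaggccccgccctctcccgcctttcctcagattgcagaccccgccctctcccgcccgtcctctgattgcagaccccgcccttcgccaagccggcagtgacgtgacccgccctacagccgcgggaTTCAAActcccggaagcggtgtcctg
Gzmb: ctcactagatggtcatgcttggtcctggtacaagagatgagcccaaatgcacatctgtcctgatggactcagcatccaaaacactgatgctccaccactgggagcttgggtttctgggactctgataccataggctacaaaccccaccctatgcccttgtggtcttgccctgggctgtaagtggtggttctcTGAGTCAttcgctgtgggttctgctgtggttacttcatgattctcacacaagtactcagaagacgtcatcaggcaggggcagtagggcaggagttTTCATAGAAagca
Actn1: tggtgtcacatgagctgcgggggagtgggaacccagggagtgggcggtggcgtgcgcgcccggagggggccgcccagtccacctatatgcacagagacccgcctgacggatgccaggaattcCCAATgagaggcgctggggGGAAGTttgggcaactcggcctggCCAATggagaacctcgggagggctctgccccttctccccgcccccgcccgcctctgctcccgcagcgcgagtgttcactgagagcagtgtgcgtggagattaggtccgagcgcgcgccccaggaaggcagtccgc

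Ccnb2 held 3 CCAAT and 2 TTTGAA matches, Pclaf 2 CCAAT matches and 1 to TTTCCCGC, and this Cep55 window 1 TTTGAA match. Gzmb held 1 match each to TGANTCA and TTCNNNGAA, and Actn1 held 2 to CCAAT and 1 to GGAAGT. Over all called higher genes TTCNNNGAA stood in 5.26% of windows, against 8.3% of all windows. Over all called lower genes CCAAT stood in 17.1% of windows, against 37.4% of all windows. Of the 44 windows of the mitosis list, 79.5% had TTTGAA and 75% CCAAT, against 17.9% and 37.4% of all 32851 windows. Replication windows had CCAAT in 64.1% of 39 and TTTCCCGC in 12.8%, against 1.07% of all windows for that motif. Called higher genes had TGANTCA in 7 of 38 windows (18.4%), in Anxa2, Ccr4, Cd80, Fgl2, Gzmb, H1f5 and Prdm1, called lower genes in 0 of 35, and all windows in 7.81%. A match shows only that the letters are present, and these shares were not tested.

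Membrane traffic, metabolism and transport supplied further called genes. Lgmn, the lysosomal protease legumain, had 8.94, 8.76 and 9.07 on the Il2ramut/mut arrays, against 7.65, 7.87 and 7.32 on the WT arrays (1.31 ± 0.15, adjusted p = 0.0416). Arfgef2, an exchange factor for ARF GTPases in the Golgi, had 11.14, 11.36 and 11.28 on the Il2ramut/mut arrays, against 10.03, 9.91 and 9.98 on the WT arrays (1.29 ± 0.087, adjusted p = 0.00952). Car5b, a mitochondrial carbonic anhydrase, had the second largest difference of a named gene with 9.58, 9.89 and 9.40 on the Il2ramut/mut arrays, against 7.31, 7.19 and 6.61 on the WT arrays (2.59 ± 0.21, adjusted p = 0.0159), and was followed by Frmd5, a FERM domain protein, at 8.01, 7.74 and 8.73 against 5.54, 5.78 and 5.44 (2.57 ± 0.24, adjusted p = 0.0279). Groups of all 4 genes stood clear of each other, which was a condition for naming them.

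Rln3, the gene of the peptide relaxin-3, rose by 1.59 ± 0.093 (adjusted p = 0.00754) and Tmem273, a transmembrane protein, by 1.98 ± 0.23 (adjusted p = 0.0416). Among other named genes, Muc3a, Crybg3, Alox8, Osbpl3, Matn2, Cd101 and Cmtm7 rose with differences from 0.69 (Cmtm7) to 1.10 (Muc3a). Lower genes of metabolism and transport were Pdk1, a kinase that inhibits pyruvate dehydrogenase (fell by 0.71 ± 0.089, adjusted p = 0.0473), the zinc transporter Slc30a4 (fell by 1.12 ± 0.12, adjusted p = 0.0368), the nucleoside transporter Slc28a2b (fell by 0.67 ± 0.082, adjusted p = 0.0456) and the glutathione transferase Gsta4 (fell by 1.22 ± 0.16, adjusted p = 0.0498). Gpm6b, a membrane proteolipid, fell by 1.24 ± 0.096 (adjusted p = 0.0159) and Dzip1, a protein of cilia, by 0.86 ± 0.078 (adjusted p = 0.0253).

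Many basic programs showed no called gene. For the unfolded protein response and ER folding, 0 of 36 measured genes were called (3 higher and 2 lower at an unadjusted p under 0.05) and the median was 0.04. Its chaperones Hspa5 (-0.04 ± 0.092, adjusted p = 0.923) and Calr (0.07 ± 0.081, adjusted p = 0.796) lay near 0, and its highest value was that of Atf6, a stress sensor of the ER (0.67 ± 0.097, adjusted p = 0.0665). Oxidative phosphorylation (0 of 29 called, median -0.01, 1 at an unadjusted p under 0.05) and glycolysis with the TCA cycle (0 of 24, median 0.03, 2 at that p) also lay near 0. For cholesterol and fatty acid synthesis, 21 of 25 differences were positive at a median of 0.14, with 0 called (2 at that p).

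Signaling lists without calls differed in how their members lay. The T cell receptor signaling list had 0 of 31 called, 8 (25.8%, against 8.54% of all named genes) without overlap higher and 11 (35.5%, against 8.96%) lower, with Ubash3b, a phosphatase (0.57), and Grap2, an adaptor (-0.49), at its ends, and 4 higher and 8 lower at an unadjusted p under 0.05. NF-kB genes were negative in 13 of 18, at a median of -0.10 (0 called, 5 at that p) that was -0.042 with quantile normalization. Of them, 7 (38.9%) did not overlap in the lower direction and 0 in the higher. All members of the NF-kB and T cell receptor signaling lists were above background. Among named genes above background these shares were 13.2% in the lower and 8.21% in the higher direction. Interferon-stimulated genes were negative in 25 of 30 at a median of -0.14 (0 called, 1 higher and 3 lower at that p). Their median by array ran from -0.34 to 0.01 in Il2ramut/mut and from -0.22 to 0.21 in WT Treg cells, so the groups overlapped. The ribosomal protein and housekeeping medians were -0.05 each, and Cd3e (0.03 ± 0.081) and Cd4 (-0.09 ± 0.093) stayed within their spread.

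A block of unnamed and model transcripts on chromosome 14 made up 40 of the 77 lower calls. Calls reached 1.52% of the 2828 probe sets assigned to chromosome 14, with 2 higher and 41 lower. Of the 40, 21 listed several models, 15 listed 1, such as Gm3002 and Gm3239, and 4 listed none. Their mean signal was 11.11, 11.40 and 11.29 on the Il2ramut/mut arrays, against 12.12, 12.36 and 12.28 on the WT arrays, with differences from -1.17 to -0.70. On the Tconv arrays their mean signal was 6.73 in Il2ramut/mut and 6.84 in WT cells. Probe sets that list several models may share transcripts of near-identical copies, so the 40 are not 40 separate measurements. With quantile normalization only 16 probe sets of the whole Treg comparison were called lower, so most of the 40 then lost their call. Without chromosome 14 identifiers, 46 probe sets were called, 34 higher and 12 lower. Of the 50 called genes named here that remained in that test, 33 stayed called and 17 did not. Calls on other chromosomes thus depended in part on chromosome 14 being in the test.

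Transcripts of other cell types that a sort could carry were looked at beside these results. Of 12 measured B cell genes 6 were at background on all 6 arrays, with the defining Cd79a, Ms4a1 and Pax5 among them. Their summed signal lay at 17.00 to 17.04 in Il2ramut/mut and 16.83 to 16.85 in WT Treg cells and was almost all from Ighm, while Cd22 went the other way at 6.05, 6.04 and 6.08 against 6.85, 6.51 and 7.05 (adjusted p = 0.116). Of 18 myeloid genes 9 were at background on all arrays, including Adgre1, Csf1r and Flt3, and the sum, mostly Cst3, was 12.40 to 12.57 in Il2ramut/mut and 12.10 to 12.33 in WT cells.

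For stroma the sum was 10.74 to 11.26 in Il2ramut/mut and 11.50 to 11.97 in WT cells and came from Pecam1, which T cells also carry. Col3a1, a collagen gene of fibroblasts, and Cdh5, a cadherin of endothelium, were at background on all arrays. NK and innate lymphoid markers summed to 11.25 to 11.50 in Il2ramut/mut and 10.94 to 11.26 in WT cells. Of the 9 measured, 5 differences were positive and 4 negative, from -0.78 to 1.59 with a median of 0.03. The highest was Il17rb, a chain of the IL-25 receptor, at 7.37, 8.31 and 7.93 against 6.68, 6.02 and 6.13 (1.59 ± 0.26, adjusted p = 0.0934). Ncr1, the defining NK receptor, was at background throughout. The summed signal of 2 CD8 markers overlapped between groups, at 9.02 to 9.73 in Il2ramut/mut and 9.39 to 9.88 in WT cells. Taken singly, both had negative differences, of -0.41 and -0.29. In 1 of the 2 the groups did not overlap in the lower direction, against 8.96% of all named genes. No gene of these lists was called, and their part in the results was not tested.

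To see which differences were found in Treg cells alone, the Treg difference was set against that in Tconv cells in a fit of all 10 arrays, which called 246 probe sets (0.373%) for the Treg comparison itself. The difference between the effects was called for 1 of 65956 probe sets (0.00152%), that of Gzmb, and 4301 passed an unadjusted p under 0.05. Gzmb had 4.91 and 4.77 on the Il2ramut/mut Tconv arrays, against 4.80 and 5.17 on the WT Tconv arrays, of which 1 WT array alone was above background. A Tconv effect could therefore hardly be measured, and the amount of 3.28 ± 0.18 (adjusted p = 0.000681) by which the Treg effect exceeded it rests on Tconv signals at or near background. The next genes missed the threshold, with 2.68 ± 0.32 (adjusted p = 0.0786) for Car5b, 1.67 ± 0.19 (adjusted p = 0.0786) for Cd80 and 1.27 ± 0.14 (adjusted p = 0.0786) for Lamc1. On the Tconv arrays Car5b was above background on 4 of 4, Cd80 on 3 and Lamc1 on 1.

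Of the 53 called genes named here, 36 were above background on all 4 Tconv arrays and 9 on none. In the 36, Tconv differences lay between -0.43 (Lgals1) and 0.46 (Pde2a), apart from Muc3a with 0.90 and Erdr1 with 2.84. Muc3a had 8.47 and 8.08 on the Il2ramut/mut Tconv arrays, against 7.54 and 7.22 on the WT Tconv arrays, and its Treg and Tconv effects differed by 0.20 ± 0.25 (adjusted p = 0.987). In Treg cells Erdr1 stood at 11.89, 11.15 and 11.59 on the Il2ramut/mut arrays, against 9.79, 10.17 and 9.61 on the WT arrays (1.69 ± 0.21, adjusted p = 0.0473), and its signals were 10.42 and 11.86 on the Il2ramut/mut Tconv arrays, against 10.14 and 6.47 on the WT Tconv arrays. In the fit of 10 arrays, its Treg difference was no longer called (adjusted p = 0.51). With 2 Tconv arrays per genotype, a difference between effects that missed the threshold does not show that Treg and Tconv cells respond alike.

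**Figure D4:**
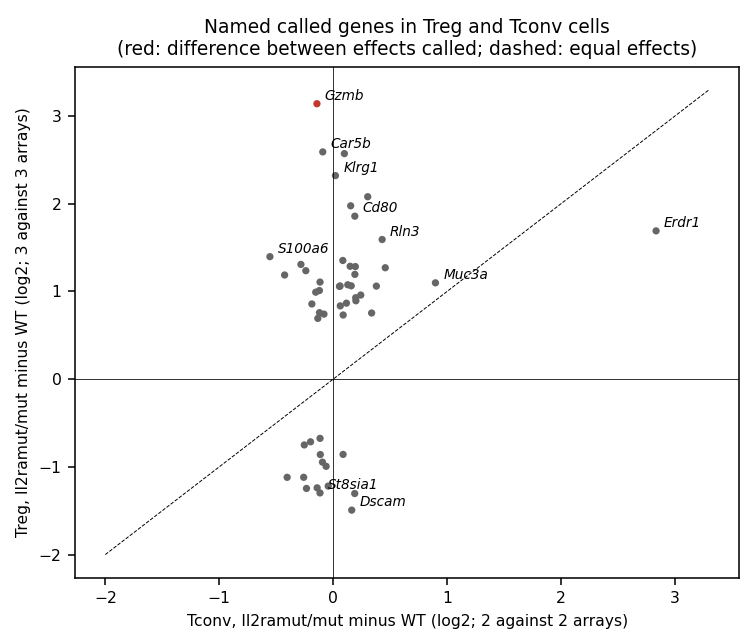
Treg difference (y axis) against Tconv difference (x axis), each Il2ramut/mut minus WT in log2 units, for the 53 called genes named here. Most points stand near 0 on the x axis, Muc3a (0.90) and Erdr1 (2.84) lie to the right, and Gzmb (red) is the 1 gene whose Treg and Tconv effects differed at an adjusted p under 0.05.

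**Figure D5:**
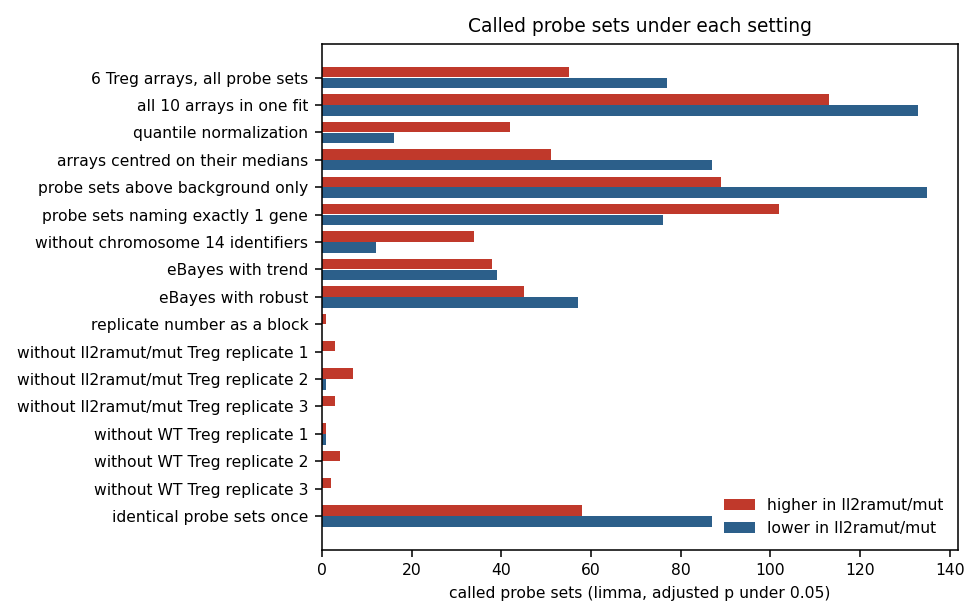
Number of called probe sets (x axis, limma) under each setting of the analysis (rows), higher in Il2ramut/mut Treg cells in red and lower in blue. The count of 132 with 6 arrays fell to between 2 and 8 when any 1 array was left out.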

How the data were processed

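Lymph node Treg cells of 3 Il2ramut/mut and 3 WT mice were compared on microarrays. Per the submitters' processing notes, the authors used Affymetrix Expression Console (1.4.1.46) and Transcriptome Analysis Console (3.1.0.5). Their deposited values are log2 signals, 1 for each probe set on an array, with the base inferred from the range and the software. How probes were summarised, and on which genome build, was not given in the sources used here. Array signals carry no read depth, and the number of arrays limits the precision. The arrays were taken as separate animals, as the paper draws them, and otherwise p-values would measure only the spread between arrays.

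Here, 65956 transcript probe sets were tested with limma 3.58.1 in R 4.3.3 (lmFit and eBayes, 1 mean per genotype, 4 residual and 3.23 prior degrees of freedom), with Benjamini-Hochberg adjustment over all of them and a threshold of 0.05. The methods' one-way ANOVA, for a pair of groups an equal-variance test of means, is called the methods' t-test. The platform annotation, with symbols updated through RefSeq, named 1 gene for 31292 probe sets, several for 1522 and none for 33142. Of the 31292, 31290 had a RefSeq entry. In lists, the probe set with the highest mean stood for a gene. Named genes were the 15 highest and 15 lowest called genes with 1 non-model symbol, non-overlapping groups and signal above background on all arrays of the brighter group, every called gene of the lists, and a fixed set of reference genes. These included 42 called genes, and 11 further called genes that met the same conditions are named after their values were seen. Members and lists were chosen with earlier results of these data known. Alternatives were the normalization, the filters, the variance model, the arrays in the fit, the replicate number as a block and leaving out each array.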

Additional observations from a re-analysis of the deposited data

Results flagged for a closer look

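For 1 named gene, the effect of the Il2ra mutation differed between Treg and Tconv cells by a test of that difference (limma, adjusted over 65956 probe sets). The Treg difference of Gzmb exceeded its Tconv difference by 3.28 ± 0.18 log2 units (SE, adjusted p = 0.000681), with 3 of 3 Il2ramut/mut Treg arrays above 3 of 3 WT Treg arrays. The Tconv arrays overlapped and were at 4.91 and 4.77 in Il2ramut/mut and 4.80 and 5.17 in WT cells, at background on all but 1 WT array, so that the Tconv effect could hardly be measured and the amount rests on signals at or near background. Groups of 2 or 3 arrays are too small for a test of single outlying arrays.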

How the results depend on the processing

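The 132 calls (55 higher, 77 lower) became 246 (113 and 133) in a fit of all 10 arrays, of which 113 were shared, 224 (89 and 135) on probe sets above background, 178 (102 and 76) on probe sets naming 1 gene, 77 (38 and 39) with eBayes trend, 58 (42 and 16) with quantile normalization, 46 (34 and 12) without chromosome 14 identifiers, and 0 (0 and 0) by the methods' t-test after Benjamini-Hochberg adjustment, which passed 1582 at an unadjusted p of at most 0.01. With median-centred arrays, robust eBayes, or probe sets of identical values counted once (chosen after seeing the data), totals were 138, 102 and 145. Leaving out 1 array gave 2 to 8 calls, 1 to 7 higher and 0 to 1 lower. It was 3, 8 and 3 without Il2ramut/mut replicates 1, 2 and 3, and 2, 4 and 2 without WT replicates 1, 2 and 3. Fewer arrays leave fewer degrees of freedom.

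Of all list genes, 28 were called, and 43 in the fit of 10 arrays, 44 on probe sets naming 1 gene, 18 without chromosome 14, 1 to 4 without 1 array and 0 by the methods' t-test. The study's criterion took in 386 (163 higher, 223 lower), 196 (85 lower) on probe sets naming 1 gene, 134 lower without chromosome 14, and 217 to 300 (91 to 140 higher, 119 to 189 lower) without 1 array. The replicate number as a block left 1 call (1 higher, 0 lower), Gzmb, and 1 called list gene. Deviations of same-numbered arrays correlated at 0.052, -0.007 and -0.005. The percentage of probe sets above background was lowest in replicate 1 and highest in replicate 2 of both genotypes. It was 40.3, 49.8 and 44.3 on the Il2ramut/mut Treg arrays, and 42.9, 51.0 and 47.8 on the WT Treg arrays. Whether same-numbered arrays share a batch was not tested. The difference between Treg and Tconv effects stayed at 1 call under both other scalings.

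None of the 53 called genes named here changed direction, which without 1 array was fixed by their non-overlapping groups. Of these, 45 stayed called in the fit of 10 arrays, 37 with quantile normalization and 52 of 52 on probe sets above background. With eBayes trend 36 stayed called, and without chromosome 14 identifiers 33 of 50 did. Ccr2 and Mki67 passed in the fit of 10 arrays (adjusted p = 0.0152 and 0.0172), on probe sets above background (0.0314 and 0.0354) and on probe sets naming 1 gene (0.037 and 0.0415), and Ccr2 with adjusted p = 0.03 without Il2ramut/mut replicate 2. The directions of uncalled genes near 0 turned for Hspa5 (0.048 with quantile normalization, and -0.12 to 0.0095 without 1 array) and Il2rb (-0.022 to 0.086 without 1 array). The cause of these changes was not tested.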
